A study of Rattus norvegicus with 12 samples.

Results

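The corticotropin-releasing factor (CRF) and urocortin family was followed in the colon of male Wistar rats through every probe of the array, controls left out, that carries the name of 1 of 7 genes: Crh, Ucn, Ucn2, Ucn3, Crhr1, Crhr2 and Crhbp. Of the 26514 gene names on the array these are 7, read by 10 of 30367 probes, 2 each for Crh, Ucn2 and Crhr2 and 1 for each of the other genes. Group C (rats C1 to C4) was not separated from the mothers and received placebo, Group M (M5 to M8) underwent neonatal maternal separation (NMS) for 180 min a day (days 2 to 14) with placebo, and Group D (D9 to D12) underwent the same NMS and received the probiotic mixture VSL#3. Placebo or VSL#3 was given by gavage in 100 µL from day 3 to day 60; the dose of VSL#3 differs between the labels and the methods and is not given here. All 12 rats underwent colorectal distension and were killed at day 60, and RNA of a colonic segment taken near the anus was hybridized, 1 array per rat in 1 colour (Cy3), so that the comparisons ask how NMS, and VSL#3 given to NMS rats, moved with the RNA of this family.

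Crh codes for CRF, the peptide by which the hypothalamus drives the stress axis, and the urocortins are its relatives. All of them act on a pair of receptors of class B1, Crhr1 and Crhr2, which couple to Gs and raise cAMP; CRF itself prefers Crhr1, whereas Ucn2 and Ucn3 act on Crhr2 and Ucn acts on both. Crhbp is a secreted protein that binds CRF and Ucn and keeps them from the receptors. In the gut the family is known for stress-related changes of motility, secretion and visceral sensitivity, with Crhr1 usually tied to stimulation of the colon and Crhr2 to the opposing action.

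The signal of each spot was divided by the 75th percentile of its array and given as log2, so that 0 is the level of that percentile (1434 to 1953 in scanner units). An increase of 1 is a doubling, and levels of different probes are not compared. A probe was taken as well above background on an array where at least 0.5 of its usable spots carried that mark of the scanner software. The study analysed 11 of the 12 arrays, without rat D12, and the tests below use these 11 unless all 12 are named. Over the 20305 probes well above background on every array, rat C2 lay closer to the means of Groups M and D than to the other Group C rats. M6 lay closest to Group C, D12 closest to Group M, and D9 to D11 closest to Group C. For D9 to D11 the mean of their own group included D12. The margin was small for D9, with a root mean square log2 difference of 0.364 to Group C and 0.370 to Group D. The arrays of Groups C and M shared 1 slide and those of Group D lay on another, so that in any comparison with Group D the slide cannot be told apart from the treatment. Replicates are separate rats, and RNA of a tissue segment cannot tell fewer cells of a type from less RNA per cell. Of 9 marker genes of colonic epithelium and 7 of smooth muscle, every one was well above background on every array, as were 9 of 10 of enteric neurons.

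Probes that read the coding part of their transcript are shown for the ligand and the receptor that gave signal. They are also shown for the other receptor, well above background on no array, and Ucn3, on 1 array. They are written 5′ to 3′ as deposited, in lower case.
Ucn2: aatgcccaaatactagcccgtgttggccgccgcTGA
Crhr2: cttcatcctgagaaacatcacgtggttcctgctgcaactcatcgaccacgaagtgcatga
Crhr1: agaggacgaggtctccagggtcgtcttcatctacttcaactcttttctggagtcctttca
Ucn3: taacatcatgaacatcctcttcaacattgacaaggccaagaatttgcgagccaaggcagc
The capitals in the Ucn2 line mark the stop codon, at base 34 of this probe of 60 bases, and the 24 bases after it are left out. On the rn4 build of the rat genome the Ucn2 probe lies at chr8:114004791-114004850 on the plus strand and begins at base 319 of its transcript. The Crhr2 probe lies at chr4:83851526-83851585 on the minus strand (base 688), the Crhr1 probe at chr10:93353354-93353413 on the plus strand (base 1004) and the Ucn3 probe at chr17:77488369-77488428 on the plus strand (base 420). The second Ucn2 probe (chr8:114005306-114005365) begins further downstream, at base 834. GC content over the 10 probes was 35% to 55%, and the longest run of bases shared by any 2 of them, on either strand, was 9.

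Most probes of the family were well above background on few or no arrays. Of the 10 probes, 1 (Ucn2, base 319) was well above background on every array, 4 on some arrays and 5 on none, against 66.9% and 19.6% of all probes on every array and on none. Over all 12 arrays 45 of 331 usable spots of the family were well above background. Both Crh probes, the second Crhr2 probe (base 1567, chr4:83839822-83839859), Crhr1 and Crhbp were well above background in no rat. A weaker mark, for a signal positive and significant against background, was on 18 of 24 Crhr1 spots and 13 of 24 Crhbp spots. It was on 9 of 24 spots of the second Crhr2 probe. For Crh it was on 3 of 115 spots at base 907 and 4 of 24 at base 1109. For the Crh probes, 97.4% of the spots at base 907 and 83.3% of those at base 1109 held a substitute value that the software sets where a spot does not exceed its background; the share was 87.5% for Ucn3, 62.5% for the second Crhr2 probe, 45.8% for Crhbp, 25.0% for Crhr1, 20.8% for Ucn, 12.5% for Ucn2 at base 834, 4.17% for Crhr2 at base 688 and 0 for Ucn2 at base 319.

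**Figure D1:**
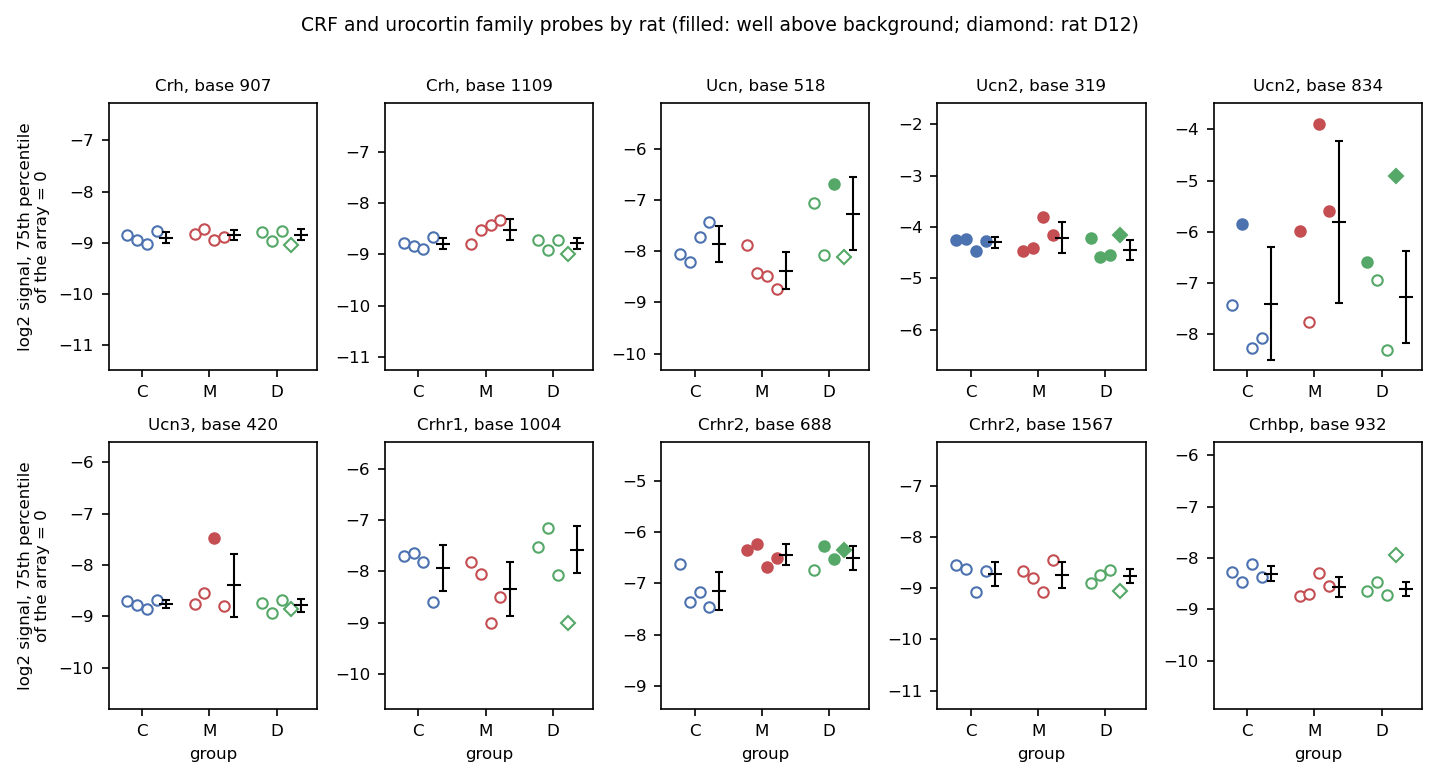
Log2 signal of the 10 family probes (panels, each named by gene and first base in the transcript) in each rat of Groups C, M and D. Filled points are well above background, the diamond is rat D12, and black bars give the mean ± SD of 4, 4 and 3 rats (without D12); each panel spans the same number of log2 units on its own level, and filled points in every rat appear for Ucn2 at base 319 alone.

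Among the ligands, Ucn2, the peptide selective for Crhr2, gave the steadiest signal at its coding end. The log2 signal of the probe at base 319 was -4.26, -4.23, -4.46 and -4.27 in C1 to C4. It was -4.46, -4.41, -3.81 and -4.16 in M5 to M8. In D9 to D12 it was -4.22, -4.58, -4.54 and -4.15. The groups overlapped, and rat M7 was the highest of the 12. The log2 difference was 0.10 between Groups M and C (SE 0.15, 95% interval -0.24 to 0.44), -0.24 between Groups D and M (SE 0.16, interval -0.61 to 0.13) and -0.14 between Groups D and C (SE 0.16, interval -0.51 to 0.22), with limma adjusted p values of 0.77, 0.43 and 0.99. Without M7 the difference between Groups M and C was -0.04. Each of these intervals lay within a 2-fold difference in either direction.

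The Ucn2 probe at base 834 spread over a far wider range. Its log2 signal was -7.42, -5.85, -8.27 and -8.06 in C1 to C4, where C2 alone was well above background. In M5 to M8 it was -5.99, -7.75, -3.90 and -5.60, with all but M6 well above background. In D9 to D12 it was -6.59, -6.93, -8.30 and -4.91, with D9 (by 1 of 2 spots) and D12 well above background. Rats of every group were thus both high and low. By the rule used for the other probes no difference would be given here; it was computed after the values were seen. It was 1.59 between Groups M and C (SE 0.80, 95% interval -0.18 to 3.36, limma adjusted p = 0.27), and -1.46 between Groups D and M (SE 0.86, interval -3.38 to 0.45, adjusted p = 0.35), or -0.87 with all 12 arrays. Without C2 or without M6 the unadjusted p between Groups M and C fell below 0.05, with differences of 2.11 and 2.24 and limma adjusted p values of 0.14 and 0.060. With each rat left out in turn, the difference between Groups M and C ran from 0.95 (without M7) to 2.24 (without M6).

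Across rats the pair of Ucn2 probes varied together, although 1 was nearly level. Pearson's r over the 12 rats was 0.75 (permutation p = 0.0069) and Spearman's rho 0.78 (permutation p = 0.0042). Adjusted over the 46 relations computed across rats, this and 45 of 3 family probes with the marker sums given next, the p values were 0.050 and 0.057. Without M7 and D10, the rats farthest from the median at base 319, r was 0.66 (permutation p = 0.042) and rho 0.84. Among the 8 rats of the first slide r was 0.77 (exact permutation p = 0.034). Group D alone, with 4 rats, was too small for a value.

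**Figure D2:**
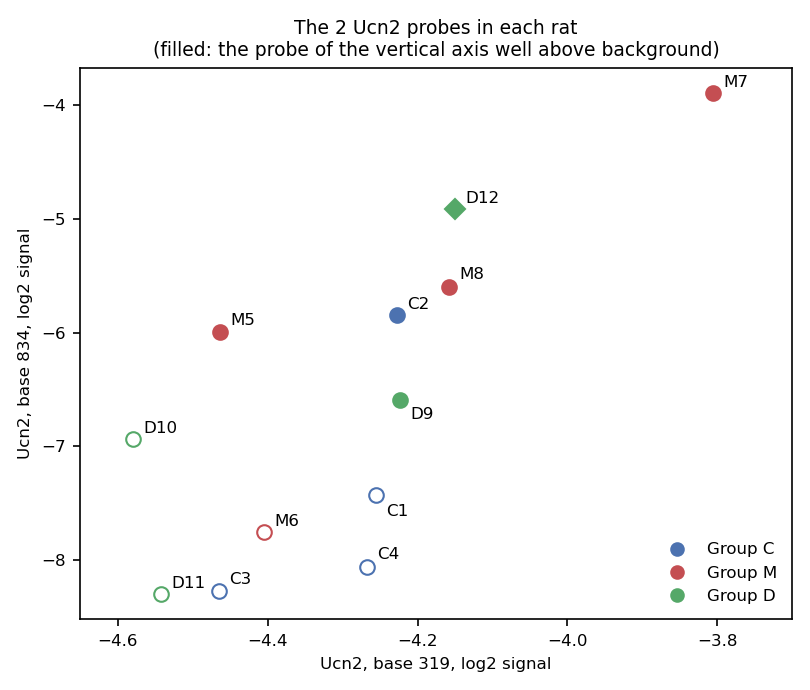
Log2 signal of the Ucn2 probe at base 834 (vertical) against that at base 319 (horizontal) in each of 12 rats, coloured by group; filled points were well above background at base 834. M7 lies highest on both axes, and C2 and D12 lie above the other rats of their groups on the vertical axis.

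Rats with a high signal of the Ucn2 probe at base 834 also had high sums of marker genes of immune cells. Each sum is taken over the linear signals of a list, in units of the 75th percentile of the array. M7, the rat with the highest Ucn2 signal, had a neutrophil sum of 3.65 (5 genes measured, 3 of them well above background on every array), against 0.150 to 0.618 in the other 11 rats. It also had the highest macrophage sum, 9.19, against 5.27 to 7.85 elsewhere (6 of 6 genes well above background on every array). C2 and D12, the highest of Groups C and D for Ucn2, were the highest of their groups for B cells (5.91 and 14.5), T cells (4.95 and 9.38) and mast cells (1.51 and 1.93). M6, the lowest of Group M for Ucn2, was the lowest of that group for the same lists, with 0.293 for B cells, 0.607 for T cells and 1.49 for mast cells. D9 was an exception, with the Ucn2 probe well above background by 1 spot and the lowest B cell sum of all rats, 0.125.

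Mast cell sums ranged from 0.669 to 1.51 in Group C, 1.49 to 2.57 in Group M and 1.17 to 1.93 in Group D (8 genes, 7 on every array), so that C2 alone of Group C reached the range of Group M. Over the 12 rats the log2 of the sum and the Ucn2 probe at base 834 had r = 0.80 for mast cells (rho 0.80, permutation p = 0.0012 and 0.0033, adjusted 0.028 and 0.057), and r = 0.82 without C1 and C4, the rats farthest from the median sum. For neutrophils r was 0.88 (rho 0.77, permutation p = 0.00028 and 0.0049, adjusted 0.013 and 0.057), and 0.83 without M7 and M8. For macrophages r was 0.81 (rho 0.73, permutation p = 0.0020 and 0.011, adjusted 0.030 and 0.098), and 0.63 without M7 and C3. B and T cell sums fell into separate high and low rats, the high ones being C2, M5, M7, M8 and D12. Their r was 0.79 each (rho 0.64 and 0.70, adjusted permutation p 0.038 each by r, 0.18 and 0.11 by rho). Neutrophil sums were also higher in these rats (0.438, 0.440, 3.65, 0.618 and 0.454) than in all others (0.150 to 0.187). Leaving out M7 and M8 kept C2, M5 and D12, so r for neutrophils also rests on this split. None of the 46 relations passed 0.05 by both measures after adjustment. The permutations shuffled the rats without regard to group or slide, so these p values do not separate group differences from variation between rats within a group. For the Ucn2 probe at base 319, the one measured in every rat, r was 0.38 with mast cells, 0.80 with neutrophils (0.41 without M7 and M8) and 0.70 with macrophages (0.39 without M7 and C3). For the Crhr2 probe at base 688 r was 0.49 with mast cells and 0.04 with neutrophils. Its highest r over the 15 lists was 0.60, with enteric glia (permutation p = 0.045, adjusted 0.23), and 0.22 without C2 and C3. Glia sums were 0.365 to 0.465 in Group C, 0.492 to 0.593 in Group M and 0.446 to 0.558 in Group D. The part of immune cells in the Ucn2 signal, and of glia in the Crhr2 signal, was not tested.

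**Figure D3:**
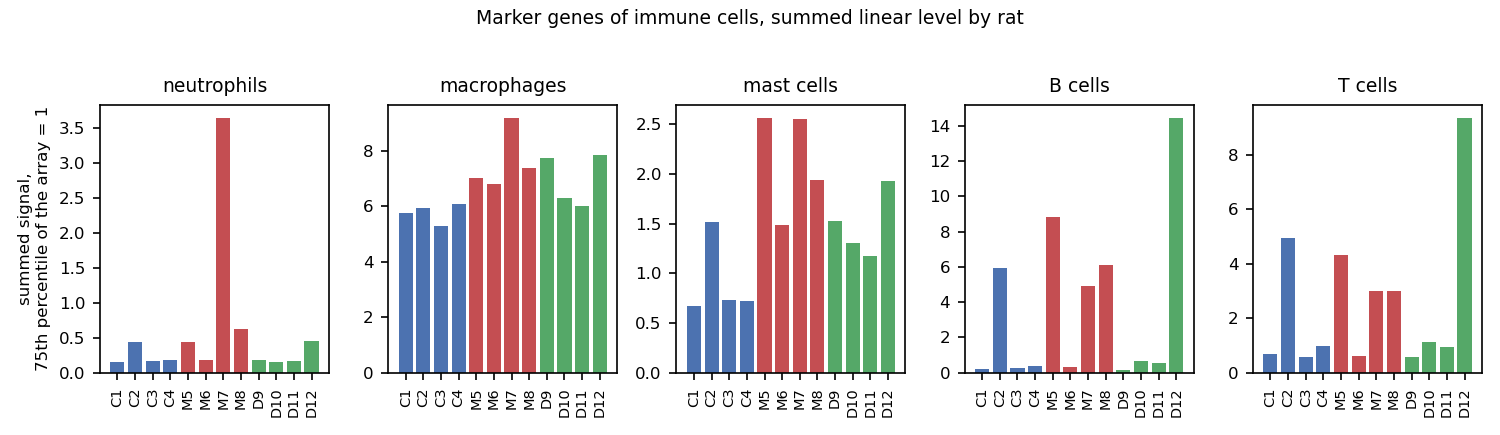
Summed linear level of marker genes of 5 kinds of immune cell (panels) in each rat, as multiples of the 75th percentile of the array, coloured by group (blue Group C, red Group M, green Group D). M7 stands out for neutrophils at 3.65, and C2, D12 and the Group M rats other than M6 are the high rats for B and T cells.

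Ucn, which binds both receptors, was well above background in 1 rat, D11, and there by 1 of its 2 spots. Its log2 signal was -8.05, -8.22, -7.72 and -7.43 in C1 to C4. It was -7.88, -8.42, -8.48 and -8.74 in M5 to M8 and -7.06, -8.07, -6.70 and -8.12 in D9 to D12. D9 and D11 stood above all other rats, while D10 and D12 lay within the range of Groups C and M. The difference between Groups D and M, computed after the values were seen, was 1.10 (SE 0.33, 95% interval 0.37 to 1.83, limma adjusted p = 0.12); with all 12 arrays it was 0.89 (adjusted p = 0.33). With 1 Group D array well above background and none of Group M, no fold is given. The spots of this probe on 1 array differed by a median of 0.79 log2 units, and 5 of its 24 spots held substitute values, 4 of them in Group M and 1 in D12. The study lists Ucn for this comparison from these same samples, which is no independent evidence of its direction.

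Ucn3, the other ligand of Crhr2, was well above background in M7 alone, where its spots read 30.0 and 3.84 in scanner units, the second a substitute value. Its log2 signal was -7.48 in M7 and -8.93 to -8.55 in the other 11 rats, and no difference is given. The Crh probes ranged from -9.04 to -8.72 at base 907 (10 spots per array) and from -8.99 to -8.33 at base 1109. RNA for CRF itself was thus not measured well above background in any rat on this array, which sets no level for it. At base 1109 the weaker mark was on 2 of 2 spots in M7 and 1 of 2 in M6 and M8.

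Of the receptors, Crhr2 gave signal through 1 of its 2 probes, and weakly. At base 688 its log2 signal was -6.63, -7.36, -7.17 and -7.47 in C1 to C4. It was -6.34, -6.23, -6.69 and -6.50 in M5 to M8 and -6.74, -6.28, -6.52 and -6.35 in D9 to D12. C2 to C4 lay below all rats of both NMS groups, and C1 lay among them, so that the groups overlapped. No Group C array, all 4 Group M arrays and 3 of 4 Group D arrays (D10 to D12) were well above background; in spots this was 0 of 8 in Group C, 4 of 8 in Group M and 4 of 8 in Group D, with 1 of 2 spots in each rat except D10, which had both. Mean log2 signals were -7.16 ± 0.37 in Group C (SD, n = 4), -6.44 ± 0.20 in Group M (SD, n = 4) and -6.51 ± 0.23 in Group D (SD, n = 3).

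The difference of Crhr2 between Groups M and C was 0.71 (SE 0.19, 95% interval 0.29 to 1.14). This is a ratio of 1.64 between the group means, an estimate and not a lower bound. No Group C array measured the probe well above background. The limma adjusted p of this difference was 0.11, which did not pass 0.05. Between Groups D and C it was 0.65 (SE 0.21, interval 0.19 to 1.10, adjusted p = 0.70), and 0.68 with all 12 arrays (adjusted p = 0.48); D9 was not well above background, and no fold is given. Between Groups D and M it was -0.07 (SE 0.21, interval -0.53 to 0.39, adjusted p = 0.88), so that a change of Crhr2 with VSL#3 in NMS rats of up to about these bounds was not resolved. The spots of the probe on 1 array differed by a median of 0.53 log2 units, close to the size of the differences. A normexp correction of the background, which lifts dim signals by a fixed offset, left 0.11 between Groups M and C (adjusted p = 0.56), and over all alternatives the adjusted p for this comparison ranged from 0.053 to this value. The other Crhr2 probe, at base 1567, was well above background in no rat (-9.07 to -8.45) and can neither show nor exclude a difference.

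Crhr1, the receptor that CRF prefers, was well above background in no rat, with log2 signals of -9.01 to -7.16, and Crhbp, the binding protein, in none either, with -8.74 to -7.95. No fold is given for these genes.

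No family probe passed limma's adjusted threshold of 0.05 with a 2-fold change in any comparison. Of all probes, 0.165% did between Groups M and C, 0.128% between Groups D and M and 0.00659% between Groups D and C. At an unadjusted p of 0.05, 2 of 10 probes passed in each comparison, against 22.7%, 21.6% and 5.97% of all probes. They were Crhr2 (base 688) and Crh (base 1109) between Groups M and C, and Ucn and Crhr1 between Groups D and M. Between Groups D and C they were Crhr2 (base 688) and Crhbp. Of these, Crh, Crhr1 and Crhbp were well above background on no array. By the criterion of the study's methods, which uses unadjusted tests and a 2-fold change of the means, 0 probes passed between Groups M and C (2.31% of all probes), 1 passed between Groups D and M (Ucn, 2.66% of all probes) and 0 passed between Groups D and C (0.369% of all probes). Ucn no longer passed it with all 12 arrays (0.948% of all probes), or without C1, C2, C3, M6, M7, M8, D9 or D11. For no family probe did the rats of 1 group all lie above or below those of another, against 9.23%, 15.8% and 7.57% of all probes. The comparisons share groups and are not independent of each other.

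**Figure D4:**
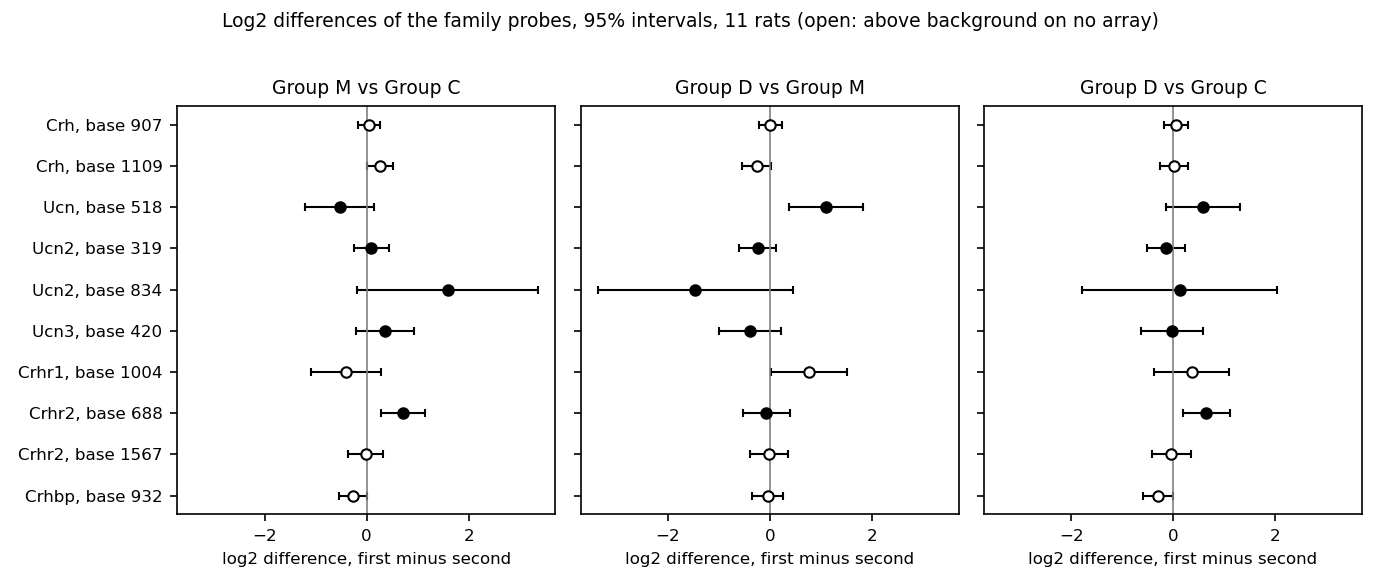
Log2 difference (horizontal, first group minus second) of each family probe in the 3 comparisons, with 95% intervals by limma over 11 rats; open points were well above background on no array. Intervals that exclude 0 by a margin are those of Crhr2 at base 688 against Group C and of Ucn between Groups D and M, none of which passed after adjustment.

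The genes whose pattern over the 12 rats was most like that of Ucn2 at base 319 were Klhl25 (r = 0.90), Prnd (r = 0.89) and Ptges (r = 0.88), out of 10559 other genes well above background on every array. Ptges codes for a synthase of prostaglandin E2. By Spearman's rho Klhl25 was again first (0.94), followed by Cdc27 and Eif3a (both 0.92), and over 11 rats without D12 the first were Mrpl19 (0.97), Klhl25 (0.95) and Gpc4 (0.92). Without M7 and D12 the first were Mrpl19 (0.95), Ltbp4 (0.93) and Klhl25 (0.88), while Prnd fell to rank 21 (0.76) and Ptges to rank 67 (0.68). For the probe at base 834, added after its values were seen, they were Usp7 (r = 0.97), Crym (r = 0.97) and Sik1 (r = 0.96), the last a kinase induced by cAMP. Without M7 and D12 the first were Ppia (0.95), Crym (0.94) and Usp7 (0.94). No gene was common to both lists, and the values are descriptions over 12 rats that share these arrays.

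Around the receptors, 5 lists of genes were read by 1 probe each: Gs, cAMP and protein kinase A (22 genes on the array), receptor desensitisation (7), proopiomelanocortin, melanocortin receptors and vasopressin (9), peptide hormone processing (9) and other class B1 receptors (13). Of the 60 genes, 46 carried the mark of the scanner software on every array, and 7 on no array. No gene of these lists passed limma's adjusted threshold in any comparison. At an unadjusted p of 0.05, 6 were higher and 8 lower in Group M than in Group C (23.3% of 60, against 22.7% of all probes, 10% higher and 12.6% lower). In Group D against Group M 8 were higher and 7 lower (25.0%, against 21.6%, 11.3% higher and 10.3% lower), and in Group D against Group C 2 were higher and 0 lower (3.33%, against 5.97%, 2.98% in each direction). These shares lie near those of all probes, and the median log2 difference over the 60 genes was 0.02, 0.04 and 0.01, against -0.01, 0.01 and -0.01 over all probes.

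Crem, a transcription factor of the cAMP response, had the largest difference of the lists. Its log2 signal was -1.92, -1.07, -1.80 and -1.76 in C1 to C4 and -0.40, -0.52, 1.24 and 0.30 in M5 to M8, with no overlap. In D9 to D12 it was -1.36, -1.46, -1.90 and 0.98, so that D12 was the odd rat of its group. The difference was 1.79 between Groups M and C (SE 0.36, adjusted p = 0.087) and -1.73 between Groups D and M (SE 0.39, adjusted p = 0.083), or -1.09 with all 12 arrays. Of the enzymes that make cAMP, Adcy3 differed by -0.63 between Groups M and C (SE 0.16, adjusted p = 0.10) and Adcy6 by 0.66 between Groups D and M (SE 0.22, adjusted p = 0.14), or 0.31 with all 12 arrays, D12 being the lowest rat of all at -4.23. Adcy9 differed by 0.38 between Groups D and C (SE 0.15, adjusted p = 0.80).

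Among the relatives of the CRF receptors, Vipr1 and Vipr2, the receptors of the peptide VIP, were the 2 well above background on every array with the smallest p between Groups M and C, and Vipr1 and Pth1r between Groups D and M. Vipr1 was 1.87, 1.32, 1.66 and 1.96 in C1 to C4, 0.80, 1.37, 0.42 and 0.52 in M5 to M8, and 2.02, 1.76, 2.06 and 0.90 in D9 to D12, as log2 signals. Groups C and M overlapped through C2 and M6. The difference was -0.92 between Groups M and C (SE 0.21, adjusted p = 0.096) and 1.17 between Groups D and M (SE 0.23, adjusted p = 0.074). With all 12 arrays the latter was 0.90 (limma adjusted p = 0.26). Vipr2 differed by -1.36 between Groups M and C (SE 0.36, adjusted p = 0.11). Pth1r, the receptor of parathyroid hormone, differed by 0.81 between Groups D and M (SE 0.21, adjusted p = 0.096), or 0.59 with all 12 arrays (limma adjusted p = 0.37). Crem and Vipr2 met the criterion of the study's methods between Groups M and C (2.31% of all probes), and Crem, Vipr1, Vipr2 and Glp2r between Groups D and M (2.66% of all probes); Glp2r, well above background on 2 of 12 arrays, is named for that count. Without M6 all 3 of Crem, Vipr1 and Vipr2 passed the adjusted threshold between Groups M and C, and these with Adcy7 and Glp2r passed it between Groups D and M, while calls over all probes rose from 50 to 1772 and from 39 to 1978. Array quality weights gave 4 genes in each of these comparisons, Crem, Vipr1 and Vipr2 in both, Adcy7 between Groups M and C and Glp2r between Groups D and M, with calls over all probes at 2125 and 2107. Single genes passed it elsewhere: Crem between Groups M and C with normexp (adjusted p = 0.0498), and between Groups D and M Vipr1 with normexp (adjusted p = 0.042) or with probes left out that no whole group measured well above background (adjusted p = 0.045), and Glp2r with quantile normalization (adjusted p = 0.047) or in the matrix of the authors (adjusted p = 0.042). With all 12 arrays no gene of the lists passed it (0.0329%, 0.0132% and 0.00659% of all probes between Groups M and C, D and M, and D and C). The B and T cell sums were high in C2, D12 and the Group M rats other than M6, as given above, and their part in these genes was not tested.

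In the remaining lists the differences were smaller. Avpr1a, a vasopressin receptor, was -5.28 to -5.25 in Group C and -5.05 to -4.33 in Group M, a log2 difference of 0.57 (SE 0.14, adjusted p = 0.10), and differed by -0.64 between Groups D and M (SE 0.16, adjusted p = 0.090), or -0.34 with all 12 arrays; D12, at -4.15, was the highest rat of all. Pomc, the precursor of the hormone ACTH that CRF releases in the pituitary, differed by -0.35 between Groups M and C (SE 0.26, adjusted p = 0.47). Mc2r, the receptor for ACTH, was well above background on no array. Of the kinases that switch off receptors, Adrbk2 differed by -0.76 (SE 0.24, adjusted p = 0.12) and Grk4 by -0.46 (SE 0.18, adjusted p = 0.16) between Groups M and C. Adrbk1 and Grk5 differed by -0.39 and -0.36 between Groups D and M (adjusted p = 0.18 and 0.21), or by -0.22 and -0.39 with all 12 arrays. Of the genes for the processing of peptide hormones none passed an unadjusted p of 0.05 between Groups M and C, where Scg5 and Pam had the smallest (0.23 and 0.27). Pcsk1n and Scg5, a pair of granins that act on the convertases, differed by 0.36 and 0.28 between Groups D and M (adjusted p = 0.16 and 0.22), or by 0.29 and 0.21 with all 12 arrays.

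**Figure D5:**
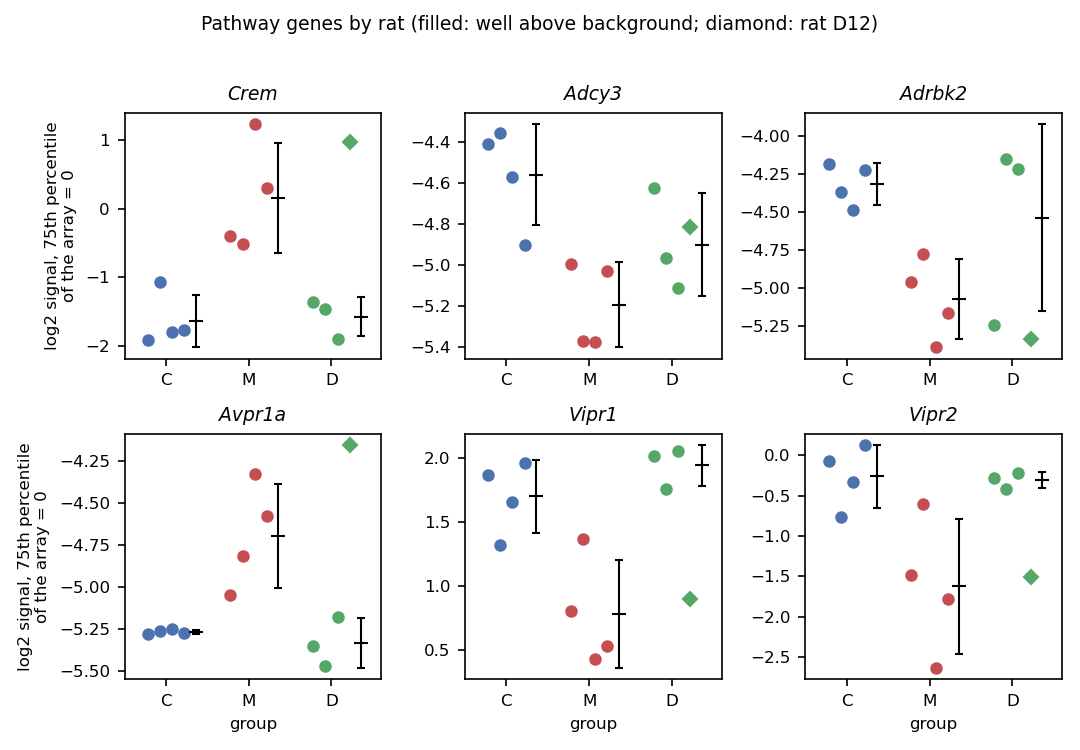
Log2 signal of 6 genes of the pathway lists in each rat of Groups C, M and D, on separate scales; the diamond is D12 and black bars give the mean ± SD of 4, 4 and 3 rats (without D12). Group M lies above Group C for Crem and Avpr1a and below it for Adcy3 and Adrbk2 without overlap, and D12 lies with Group M for Crem, Avpr1a, Vipr1 and Vipr2.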

How the data were processed

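Colonic RNA (100 ng per rat, RNA integrity above 6) of 12 rats was measured on 1-colour rat arrays. Per the file headers, Agilent Feature Extraction 10.5.1.1 had made the deposited intensity of each spot after background subtraction and detrending, not normalized between arrays, with probes placed on rn4. The deposited matrix of the authors holds quantile-normalized log2 values of the same arrays and served as an alternative. Depth has no meaning for arrays; the number of rats limits the precision.

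Signals were divided by the 75th percentile of the array and taken as log2. Spots marked as outliers were left out, spots of a probe were averaged on the log2 scale, and 19 probes lacked a value on an array. The 3 groups were compared over 11 arrays with limma 3.58.1 (lmFit, eBayes) in R 4.3.3, Benjamini-Hochberg adjustment over 30367 probes. The criterion of the methods (analysis of variance and Tukey test at an unadjusted 0.05, 2-fold means) was computed on the same values. Correlations across rats were tested with two-sided permutation tests (NumPy, checked against SciPy 1.17.1). Where no array of a group and every array of the other measured a probe well above background, a bound was given, from the lowest signal marked so on each array or its own signal, if higher. Pathway and marker genes were read by their probe of highest average signal, named where past the adjusted threshold, otherwise the 2 of a list with the smallest p well above background on every array. The procedure was tested on simulated data. The members, lists and tests were chosen with earlier results of these data known. Replicate numbers did not pair the rats. Figures were drawn with matplotlib 3.10.9 in Python 3.11.15.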

Additional observations from a re-analysis of the deposited data

Results flagged for a closer look

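In Group C, rat C3 stood apart from the other 3 rats at the Ucn2 probe at base 319, with a log2 signal of -4.46 against -4.27 for the next. This gap took 0.831 of the range of the group, just past the 95% critical value of Dixon's test for 4 samples. It was 1 of 15 sets of 4 rats examined, and chance passes about 1 set in 20.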

How the results depend on the processing

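The count of family probes past limma's adjusted threshold stayed at 0 in all 3 comparisons under every alternative run except array quality weights, which gave 1 between Groups M and C (Ucn2 at base 834, 1.77, adjusted p = 0.035) and 1 between Groups D and M (Ucn, 1.28, adjusted p = 0.018). The count at an unadjusted p of 0.05, 2 of 10 in each comparison, was less stable. Between Groups M and C it was 0 with normexp, 6 with array quality weights, and 1 with the median of the array, with dim probes left out, with only the 2 compared groups, with a trend in eBayes or with the replicate block. Between Groups D and M it was 1 with normexp, with only the 2 compared groups or with spots averaged on the linear scale, 0 with dim probes left out and 4 with weights. Between Groups D and C it was 0 with normexp and 1 with all 12 arrays, quantile normalization, the median of the array, the matrix of the authors, dim probes left out, a trend or the replicate block. With each rat left out in turn these counts ranged from 1 to 3 in every comparison. Ucn was the 1 probe that met the criterion of the methods between Groups D and M. It was lost (0) with all 12 arrays, normexp, linear averaging or adjustment of both tests. The count was 0 to 1 with each rat left out. It was also 0 with dim probes left out, where Ucn was not tested. That criterion was not run with the replicate block, weights or a trend, which are settings of limma.

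Differences near 0 changed sign. For Ucn2 at base 319 between Groups M and C they ran from -0.038 (without M7) to 0.18 with each rat left out. For Crhr2 at base 688 between Groups D and M they were 0.018 with normexp, 0.044 with quantile normalization, 0.016 with the median of the array and 0.023 in the matrix of the authors, and -0.19 to 0.044 with each rat left out. For Ucn2 at base 834 between Groups D and C the difference was -0.013 with linear averaging and -0.21 to 0.64 with each rat left out. The higher Crhr2 in Groups M and D than in Group C kept its direction under all 23 alternatives. The cause of these changes was not tested. Rats of the same replicate number did not vary together (correlations of -0.72 to 0.58, 3 of 12 rats closest to their own number), and the replicate block gave the counts above, with an adjusted p of 0.24 for Crhr2 between Groups M and C. Linear averaging, and the results for Ucn and for Ucn2 at base 834, were added after seeing the data. Signal over background limits 9 of the 10 probes.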
